A study of Rattus norvegicus with 18 samples.

Results

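A stretch of rat chromosome 20 that lies around the theta-class glutathione transferase (Gstt) genes was examined in visceral white adipose tissue (vWAT). Its members were the genes of the deposited count table whose first chromosome value was 20 and whose lowest start lay between 13700000 and 13900000 of the build Rnor_6.0, with at least 10 counts over the 18 libraries. Of 8 genes with a start in this window 6 met the limit, of 32883 genes in the table and 17545 with at least 10 counts. The window was chosen because ENSRNOG00000001242, one of the 6, was many times higher in both hypertensive groups than in the normotensive group. The differences between those groups are therefore given below as a description. No p-value is given for the members in them, and the members' calls in them are likewise counted only as a description.

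The 18 libraries were made from bulk vWAT of male rats, with 6 rats in each group. WYKW was vWAT of normotensive Wistar-Kyoto rats. SHRW was vWAT of spontaneously hypertensive rats (SHRs) that drank tap water, and SHRWT was vWAT of SHRs that drank water with 1 g/L trimethylamine N-oxide (TMAO), a product of gut microbes and liver that circulates in blood. The SHRs were 7 to 8 weeks old at the start and were treated for 22 weeks. The age of the WYKW rats is not given in the sources used here. Both SHR groups share 1 inbred strain and WYKW is another, so strain and every other difference between the colonies cannot be told apart. Rats were kept 3 to a cage, TMAO was given in the drinking water, and the labels do not give the cages. The tests below therefore treat each rat as a separate unit, and any likeness of cage mates is not taken into account.

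Glutathione transferases join the tripeptide glutathione to reactive compounds, which makes these easier to excrete. The theta class is the one known for small halogenated hydrocarbons, and its genes lie close together in rodents. The RefSeq list for the later build GRCr8 has Gstt2, Gstt4, Gstt1 and Gstt3 as neighbours on chromosome 20, with Mif on one side and Ddt and Cabin1 on the other. Mif encodes macrophage migration inhibitory factor, a cytokine with tautomerase activity, Ddt encodes its relative D-dopachrome tautomerase, and Cabin1 encodes an inhibitor of the phosphatase calcineurin. Neither the count table nor the RefSeq list pairs the Ensembl identifiers with these symbols (0 of 6 members matched), so each gene is given here by its identifier and position, and no symbol is assigned to it. For the same reason other genes of glutathione metabolism and cell type markers of vWAT were not analysed here.

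All 6 members lie on the plus strand, and none overlaps another gene of the table. In order of position they are ENSRNOG00000006589 (13732198 to 13732859, 3 exons), ENSRNOG00000052415 (13760810 to 13764475, 5 exons), ENSRNOG00000049771 (13799102 to 13816526, 5 exons), ENSRNOG00000001242 (13817795 to 13825475, 4 exons), ENSRNOG00000001239 (13827132 to 13831588, 4 exons) and ENSRNOG00000001237 (13836030 to 13963003, 39 exons). Exons that overlap were merged before they were counted. The last member starts inside the window and ends beyond it. Only 1268 bases separate ENSRNOG00000049771 from ENSRNOG00000001242, and 1656 bases separate the latter from ENSRNOG00000001239. The 2 genes of the window that did not meet the limit were ENSRNOG00000028243 with 0 counts and ENSRNOG00000038300 with 3 counts in all, whereas the member with the fewest counts, ENSRNOG00000052415, had 2661.

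The gene models in the window held a shared pattern of exon lengths. The lengths described were picked as those most shared by the genes of the window. Their shares over all genes are therefore a description and no test. ENSRNOG00000052415, ENSRNOG00000038300, ENSRNOG00000049771 and ENSRNOG00000001242 each had an exon of 88 bases in the same place, after the first exon. Of 23119 genes with more than 1 merged exon, 4.65% had an exon of this length. In 3 of these 4 genes the exon of 88 bases was followed by an exon of 151 bases. This sequence of lengths was found in 7 genes of the whole table (0.0303%), these 3 included. The fourth exon was 174 bases long in ENSRNOG00000052415 and 177 bases long in the other 2 of the 3. ENSRNOG00000001242 differed from them, with an exon of 155 bases in that place, no exon of 174 or 177 bases, and the longest first exon (568 bases) and last exon (974 bases) of the 4. Reads that aligned to several places were not counted, so the counts of genes with near-identical stretches may be too low, to a degree that the table does not show.

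**Figure D1:**
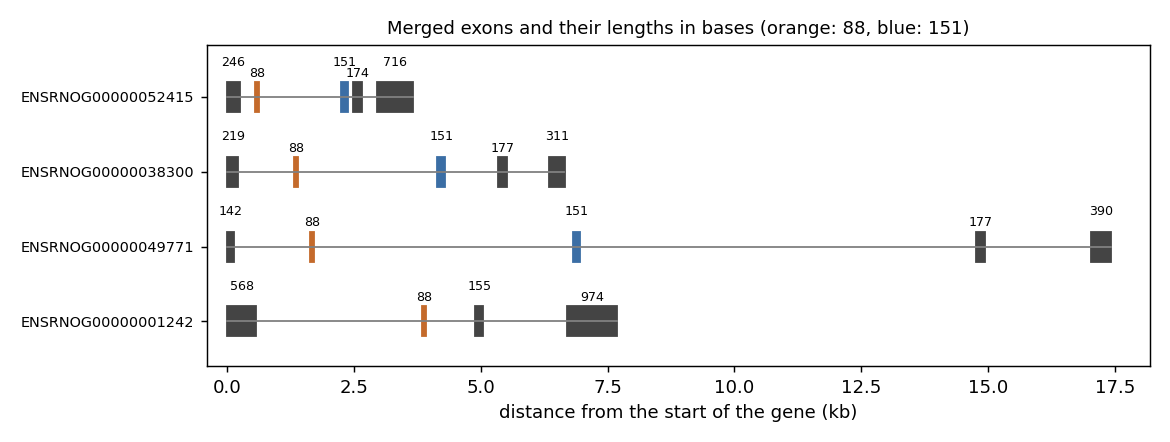
Merged exons of the 4 genes of the window that share an exon of 88 bases, by distance from the start of each gene in kilobases, with exon lengths in bases above the boxes. Orange boxes mark the exons of 88 bases, found in all 4 genes, and blue boxes those of 151 bases, found in 3.

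Depth was similar between the groups, with 10774133 to 18841046 counts per library in WYKW, 14939661 to 17251247 in SHRW and 14879416 to 18874161 in SHRWT. Mitochondrial genes held 7.08 to 20.6% of these totals in WYKW, 15.5 to 28.5% in SHRW and 11.1 to 20.8% in SHRWT. Levels are given as CPM, counts scaled by the library total, or, where genes are compared with each other, as FPKM, which is also divided by the exon length in kilobases. The libraries differed in how counts depended on gene length. The rank correlation (Spearman's rho) of exon length with the deviation of each gene in a library from its own average, across genes, which are not independent replicates, was from -0.4 to 0.258 in WYKW, from -0.205 to 0.44 in SHRW and from -0.349 to 0.108 in SHRWT. In bulk tissue, fewer cells of a type and less RNA per cell cannot be told apart.

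On the scale of FPKM the order of the members changed between the strains. In WYKW the highest level was that of ENSRNOG00000001239, at 167 ± 24.2 FPKM (SD, n = 6 here and for the other means), followed by ENSRNOG00000049771 at 29.5 ± 7.15. ENSRNOG00000001237 (4.54 ± 1.40), ENSRNOG00000052415 (4.34 ± 1.58) and ENSRNOG00000001242 (3.82 ± 1.15) were next, with ranges that overlapped. In SHRW, ENSRNOG00000001239 (118 ± 29.2 FPKM) and ENSRNOG00000049771 (104 ± 26.8) were close, ENSRNOG00000001242 followed at 64.5 ± 16.5, and ENSRNOG00000052415 (6.68 ± 2.24) and ENSRNOG00000001237 (5.72 ± 0.507) were again low, with ranges that overlapped. In SHRWT the levels were 135 ± 9.54 for ENSRNOG00000001239, 122 ± 10.9 for ENSRNOG00000049771, 68.5 ± 23.0 for ENSRNOG00000001242, 8.85 ± 4.01 for ENSRNOG00000052415 and 4.25 ± 1.53 for ENSRNOG00000001237. ENSRNOG00000006589 is left out of this order because its mean rests on few libraries, as described below.

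ENSRNOG00000001242 had the wider strain difference of the 2 members whose groups did not overlap. In WYKW the 6 libraries had 7.85, 3.77, 5.20, 8.84, 6.42 and 8.81 CPM, in the order of replicates 1 to 6. In SHRW they had 127, 102, 166, 84.4, 93.6 and 117 CPM, and in SHRWT 75.5, 199, 106, 118, 112 and 124 CPM. Every SHR library was above every WYKW library, and the lowest SHR library (75.5 CPM) was far above the highest WYKW library (8.84 CPM). The mean was 16.9 times that of WYKW in SHRW and 17.9 times that of WYKW in SHRWT. In edgeR's fits the log2 fold change was 4.01 (standard error 0.27) for SHRW against WYKW and 4.20 (standard error 0.30) for SHRWT against WYKW. Both comparisons use the same 6 WYKW libraries and so are not independent. WYKW did not lack the transcript, since its libraries held between 56 and 152 counts of this gene.

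ENSRNOG00000049771, the gene just upstream, was also higher in every SHR library than in every WYKW library. The WYKW libraries had 30.4, 18.7, 23.6, 37.9, 31.8 and 25.5 CPM, the SHRW libraries 125, 74.1, 100, 64.3, 101 and 126 CPM, and the SHRWT libraries 106, 127, 108, 129, 118 and 107 CPM. Its difference was smaller than that of its neighbour. The mean was 3.52 times that of WYKW in SHRW and 4.14 times in SHRWT, and the log2 fold change was 1.78 (standard error 0.27) and 2.07 (standard error 0.19). SHRW was the group with the widest spread, and its replicates 2 and 4, the lowest for this gene, were also the lowest for ENSRNOG00000001239.

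ENSRNOG00000001239, the gene just downstream of ENSRNOG00000001242, went the other way in its means. It had 153 to 234 CPM in WYKW (median 195), 95.0 to 180 in SHRW (median 141) and 139 to 169 in SHRWT (median 157). The groups overlapped, and the log2 fold change against WYKW was -0.52 (standard error 0.23) in SHRW and -0.27 (standard error 0.13) in SHRWT. The levels of neighbouring genes therefore had different ratios in the strains. Per length, ENSRNOG00000001242 stood at 0.0227 ± 0.0061 of ENSRNOG00000001239 in WYKW, 0.563 ± 0.152 in SHRW and 0.504 ± 0.152 in SHRWT. ENSRNOG00000049771 stood at 0.177 ± 0.0361 of it in WYKW, 0.879 ± 0.0666 in SHRW and 0.902 ± 0.0432 in SHRWT. Such ratios within a library do not depend on the library total.

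**Figure D2:**
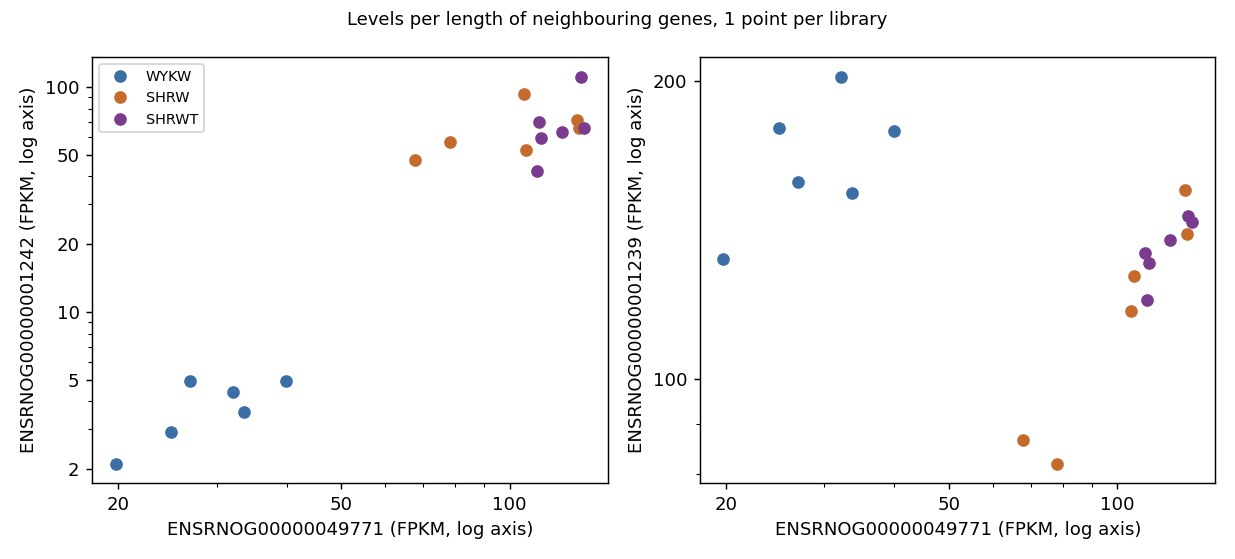
FPKM of ENSRNOG00000049771 on the horizontal axis and of ENSRNOG00000001242 (left) or ENSRNOG00000001239 (right) on the vertical axis, all axes logarithmic, with 1 point per library coloured by group. The WYKW libraries lie apart from both SHR groups on the horizontal axis, and on the right the SHR points follow a narrow band, with mean ratios of the horizontal to the vertical level of 0.879 and 0.902.

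ENSRNOG00000052415 and ENSRNOG00000001237 had levels that overlapped between the strains. ENSRNOG00000052415 had 1.83 to 7.79 CPM in WYKW (median 6.44), 3.71 to 12.4 in SHRW (median 9.83) and 7.63 to 21.2 in SHRWT (median 9.72). Its log2 fold change against WYKW was 0.55 (standard error 0.32) in SHRW and 1.06 (standard error 0.33) in SHRWT, and the groups overlapped in both comparisons. ENSRNOG00000001237 had 21.2 to 54.6 CPM in WYKW (median 35.4), 40.1 to 49.3 in SHRW (median 46.4) and 19 to 51.4 in SHRWT (median 35.9), with a log2 fold change against WYKW of 0.31 (standard error 0.17) in SHRW and -0.03 (standard error 0.24) in SHRWT.

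ENSRNOG00000006589 was either high or low, though detected in every library, and the states did not follow the groups. In WYKW the libraries of replicates 3 and 6 had 61.4 and 65.0 CPM, and the other 4 had 1.19, 1.22, 0.698 and 2.02 CPM. In SHRW replicate 3 had 50.1 CPM and the other 5 had 0.696, 0.611, 0.433, 1.08 and 1.65 CPM. In SHRWT all 6 libraries were low, at 1.21, 0.777, 1.19, 0.544, 0.801 and 1.01 CPM. Over the 18 libraries, 3 lay between 50.1 and 65.0 CPM and 15 between 0.433 and 2.02 CPM (7 to 33 counts), with none in between. The group medians were 1.62 CPM in WYKW, 0.887 in SHRW and 0.904 in SHRWT. The log2 fold changes of this gene, -1.50 (standard error 1.36) for SHRW against WYKW and -4.53 (standard error 1.15) for SHRWT against WYKW, come from those 3 libraries. Without SHRW replicate 3 the first was -4.61. Without WYKW replicate 3, WYKW replicate 6 or any 1 of SHRWT replicates 2 to 6 the gene no longer passed the thresholds given below for SHRWT against WYKW (log2 fold change from -4.78 to -3.77 over the 12 libraries left out in turn).

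**Figure D3:**
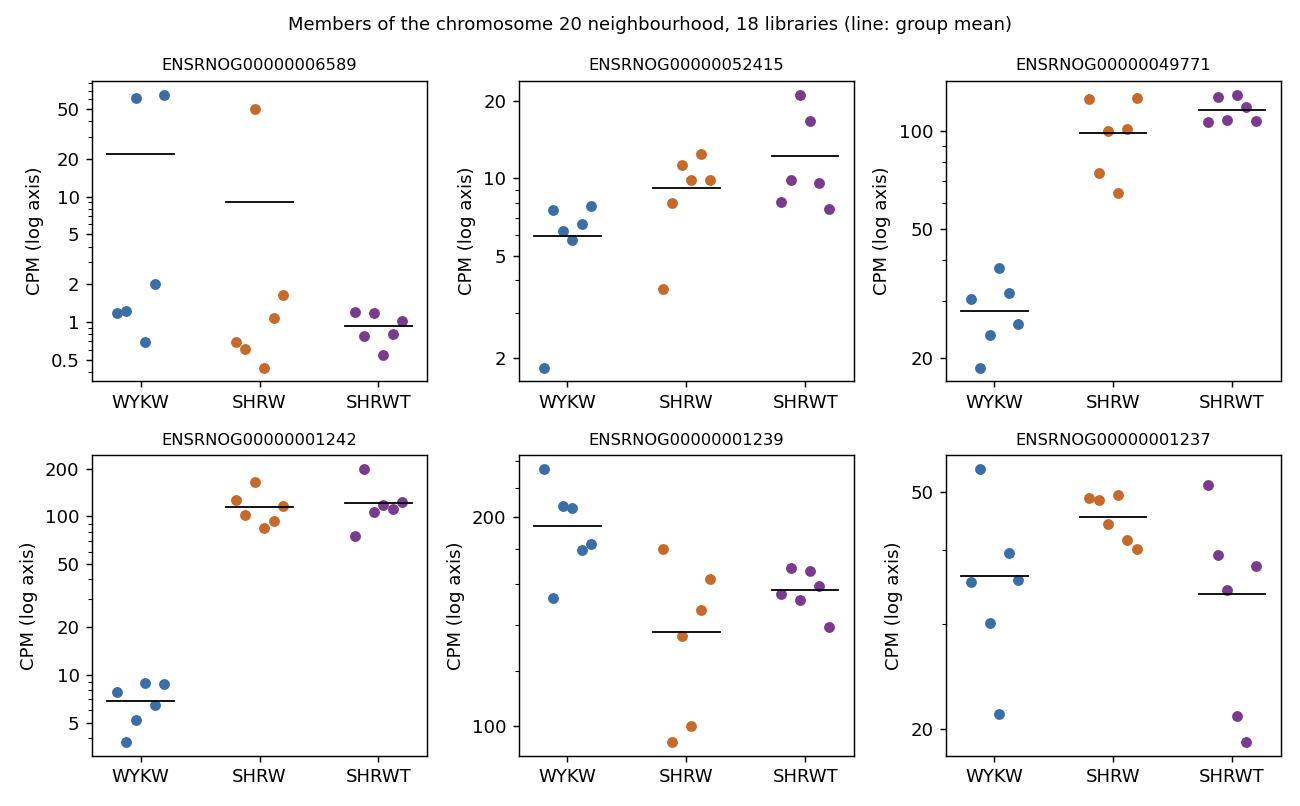
CPM of the 6 members in the 18 libraries on logarithmic axes, 1 point per library and a line at the group mean. ENSRNOG00000001242 and ENSRNOG00000049771 lie higher in all SHR libraries than in all WYKW libraries, and ENSRNOG00000006589 is above 50 CPM in 3 libraries and at most 2.02 CPM in the other 15.

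Since the window was chosen on the comparisons with WYKW, the following counts of members in them are no test, and nothing is read from them. Genes were called at an adjusted p-value under 0.05 in edgeR's quasi-likelihood test, if the log2 fold change was also 1 or more, up or down. All 6 members passed the filter on low counts in all 3 comparisons. For SHRW against WYKW 2 of 6 members were called, both higher in SHRW, where 3.42% of 13017 genes were called, 1.29% as higher and 2.13% as lower. For SHRWT against WYKW 3 of 6 were called, where 3.62% of 12833 genes were called. These were ENSRNOG00000049771 and ENSRNOG00000001242, both higher (1.45% of genes were called as higher), and ENSRNOG00000006589, lower (2.17% as lower). The groups did not overlap in CPM for 2 of 6 members in each of these comparisons, both higher in the SHRs, where this held for 3.93% and 4.33% of all genes tested (1.22% and 1.50% as higher). DESeq2 called 2 members for SHRW against WYKW (5.53% of genes) and 4 for SHRWT against WYKW (5.22%), and limma voom called 2 (12.7%) and 3 (5.74%), the 3 being ENSRNOG00000052415, ENSRNOG00000049771 and ENSRNOG00000001242.

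Few genes next to the window could be tested. Within 200000 bases on either side, 7 of 18 genes had at least 10 counts and edgeR tested 5 of them. Of these 5, 0 were called for SHRW against WYKW by edgeR, with 1 at an unadjusted p under 0.05 (25.0% of all genes), and 0 were called by DESeq2 or limma voom. At this unadjusted limit limma voom had 2 of 5 (47.3% of all genes), ENSRNOG00000050410 with a log2 fold change of -0.68 (adjusted p = 0.00445) and ENSRNOG00000049952 with 0.75 (adjusted p = 0.0118), both below the fold limit. In edgeR the log2 fold changes of the 5 genes were from -0.45 to 0.37 for SHRW against WYKW and from -0.67 to 0.25 for SHRWT against WYKW, where 0 of 5 were called by any of the 3 tools, with 0 at an unadjusted p under 0.05 in edgeR (23.4% of all genes) and 2 in limma voom (34.3% of all genes). Of the 11 genes tested in the window and its flanks, 2 adjacent ones, ENSRNOG00000049771 and ENSRNOG00000001242, had groups that did not overlap in either comparison with WYKW. Over all genes tested this held for 3.93% in SHRW and 4.33% in SHRWT against WYKW. The window was chosen on ENSRNOG00000001242 in these comparisons, so nothing is read from this count.

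**Figure D4:**
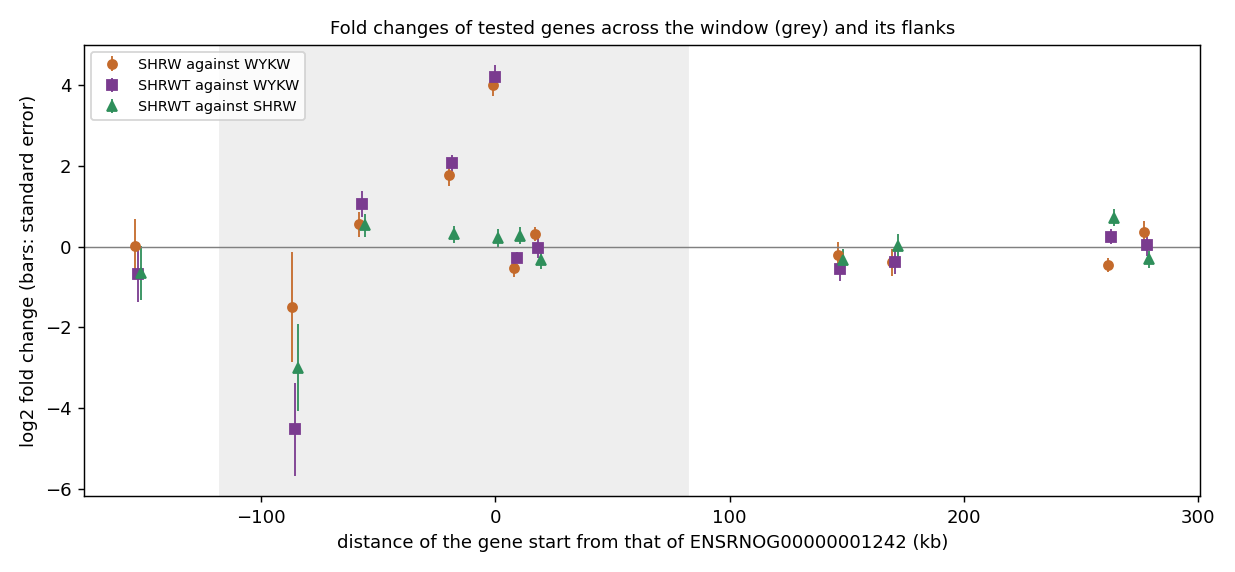
Log2 fold changes with standard errors of the genes tested in the window (grey) and its flanks, by the distance of their start from that of ENSRNOG00000001242 in kilobases, with the 3 comparisons set slightly apart. Both comparisons with WYKW reach 4.01 and 4.20 at ENSRNOG00000001242, while the flanking genes stay between -0.67 and 0.37 in them.

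TMAO was compared with water within the SHRs, a comparison that did not serve to choose the window. In edgeR's quasi-likelihood test 0 of 6 members were called, as were 0 of 12852 genes (0%), and the lowest adjusted p-value of any gene was 0.0834. DESeq2 (2.98% of genes called) also called 0 of the 5 members it tested, and limma voom (8.46%) 0 of 6. At an unadjusted p under 0.05 edgeR had 1 of 6 members, where 25.0% of all genes met this limit, and limma voom had 2 of 6 (44.0% of all genes). In 0 of 6 members were the groups apart in CPM, where this held for 0.708% of all genes. The median log2 fold change of the members was 0.24, where that of all genes was -0.01.

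The difference in ENSRNOG00000001242 between SHRWT and SHRW was smaller than the spread between rats. Its log2 fold change was 0.21 (standard error 0.23, 95% interval -0.29 to 0.71, edgeR adjusted p = 0.592). For ENSRNOG00000049771 it was 0.31 (standard error 0.21, 95% interval -0.14 to 0.76, edgeR adjusted p = 0.365). In limma voom the adjusted p of this gene was 0.0327 with a log2 fold change of 0.54, below the fold limit. For ENSRNOG00000001239 edgeR gave 0.27 (95% interval -0.18 to 0.72, adjusted p = 0.428), and limma voom gave 0.50 with an adjusted p of 0.04. With an offset for the gene length trend of each library the edgeR values of these 2 genes were 0.06 and 0.08 (adjusted p = 0.805 and 0.783).

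For ENSRNOG00000052415 the log2 fold change of SHRWT against SHRW was 0.53 (95% interval -0.10 to 1.15, edgeR adjusted p = 0.27), and for ENSRNOG00000001237 it was -0.33 (95% interval -0.80 to 0.14, edgeR adjusted p = 0.353). ENSRNOG00000006589 had the smallest unadjusted p of the members, with a log2 fold change of -3.00 (95% interval -5.32 to -0.68, edgeR adjusted p = 0.129). This value rests on SHRW replicate 3. Without that library it was 0.07 (edgeR adjusted p = 0.93). The intervals leave room for differences of up to 1.15 on the log2 scale in the other 5 members.

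Correlations within a group were examined among 3 adjacent members, and 2 of 9 passed, both for the outer pair of the 3. Pairs of other genes were not examined, so how often such pairs would pass is not known. Correlations of log2(CPM + 0.5) were computed for the 3 pairs among ENSRNOG00000049771, ENSRNOG00000001242 and ENSRNOG00000001239 in each of the 3 groups, 9 in all, with two-sided exact permutation tests over the 6 rats. ENSRNOG00000049771 and ENSRNOG00000001239, which are not adjacent, had Pearson's r = 0.978 in SHRW (exact permutation p = 0.00556, adjusted p = 0.0375) and r = 0.924 in SHRWT (exact permutation p = 0.00833, adjusted p = 0.0375). Spearman's rho was 0.886 (exact permutation p = 0.0333) and 0.943 (exact permutation p = 0.0167). Without the 2 rats farthest from the median of the first gene named in the pair, r was 0.982 and 0.744. Leaving out these rats narrows the range of that gene, which alone can lower r. In WYKW the same pair had r = 0.772 (exact permutation p = 0.075, adjusted p = 0.118), and -0.0128 without the 2 farthest rats.

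The gene length trend of the libraries moved with these levels. In SHRW it correlated with ENSRNOG00000049771 at r = -0.941 and with ENSRNOG00000001239 at r = -0.960, in SHRWT at -0.705 and -0.545, and in WYKW at -0.975 and -0.730. With the trend removed from the values, an alternative chosen after seeing the data, the pair had r = 0.928 in SHRW and 0.891 in SHRWT, each with an exact permutation p of 0.0139 and an adjusted p of 0.0625, and 0.438 in WYKW (exact permutation adjusted p = 0.422), so none of the 9 passed. The adjacent pair ENSRNOG00000049771 and ENSRNOG00000001242 had r = 0.851 in WYKW, 0.754 in SHRW and 0.752 in SHRWT (adjusted p = 0.0917, 0.118 and 0.113, exact permutation tests). Its Spearman's rho was 0.771, 0.829 and 0.543, and r without the 2 farthest rats was 0.306, 0.140 and 0.303. Whether these relations rest on those rats is not settled, since the narrower range alone can lower r. The pair ENSRNOG00000001242 and ENSRNOG00000001239 had r of 0.760, 0.692 and 0.578 (adjusted p = 0.118, 0.155 and 0.218, exact permutation tests) in WYKW, SHRW and SHRWT. Without the 2 farthest rats it had -0.00684, 0.136 and 0.186, and with the trend removed 0.521, 0.580 and 0.347.

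Over all 18 libraries, the genes most like ENSRNOG00000001242 lay outside the window. Among 13324 other genes, the 5 outside the window with the highest Pearson's r of log2(CPM + 0.5) had r between 0.964 and 0.984. The first was ENSRNOG00000001701 on chromosome 11 (33909439 to 33917674), with at most 0.957 CPM in WYKW and 136 to 321 CPM in the SHR libraries. The next was ENSRNOG00000042912 on chromosome 10 (82232107 to 82252963, r = 0.977), with 0.106 to 0.511 CPM in WYKW and 5.10 to 9.78 CPM in the SHR libraries. The fifth, ENSRNOG00000038999, lay on chromosome 20 outside the window (5351605 to 5421098, r = 0.964). It had 88.5 to 187 CPM in WYKW, 859 to 1793 in SHRW and 1126 to 2167 in SHRWT. The adjacent ENSRNOG00000049771 came at rank 9, with r = 0.957. These correlations describe genes that separate the same strains, and no p-value is given for them.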

How the data were processed

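RNA-seq libraries came from the vWAT of 18 rats. The authors trimmed reads with cutadapt 2.5, aligned them to Rnor_6.0 with HISAT2 2.1.0 and counted them with featureCounts 1.6.3, by strand and over the exons of Ensembl release 96, according to the submitters' processing notes and the head of the table. The deposited values are whole-number counts per gene, neither normalized nor filtered. The command names no option for reads with several alignments, so these were left out, which can lower the counts of genes with near-identical copies.

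Groups and replicate numbers came from the sample titles. CPM and FPKM were computed from the library totals and the exon length in the table. Groups were compared with edgeR 4.0.16 in R 4.3.3 (TMM, filterByExpr, quasi-likelihood test, Benjamini-Hochberg adjustment over all genes tested), fitted on the 2 groups compared. Standard errors and 95% intervals were derived from its F statistic. Alternatives were limma 3.58.1 (voom, libraries weighted by quality), DESeq2 1.42.0, other size factors, no filter, all 18 libraries, a gene length offset, no mitochondrial genes, a replicate block and leaving out each library. Correlations and exact tests were computed with scipy 1.17.1 and numpy 2.4.6 (Python 3.11.15).

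The members and lists were chosen with earlier results of these data known. The members were to be named with full values for ENSRNOG00000001242, for members whose groups do not overlap, and for that of smallest p under TMAO. Of the 5 genes most like ENSRNOG00000001242 only the first 2 and the fifth, which lies on the same chromosome, are named. The lists of glutathione metabolism, cell type markers and promoter motifs need symbols and were not used here. The rats are separate animals, and no 2 libraries of a group agreed within sampling noise (smallest chi-square per degree of freedom 13.4).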

Additional observations from a re-analysis of the deposited data

Results flagged for a closer look

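Levels in CPM of the 6 members were searched in each group of 6 libraries for a library far from the others, 18 groups in all, where about 1 in 20 groups would have one by chance. There were 2. SHRW replicate 3 had 50.1 CPM of ENSRNOG00000006589, while the other SHRW libraries lay between 0.433 and 1.65 CPM. WYKW replicate 1 had 1.83 CPM of ENSRNOG00000052415 (20 counts), while the other WYKW libraries lay between 5.76 and 7.79 CPM. The cause was not tested for either. The high WYKW libraries of ENSRNOG00000006589 were not found by this search, since there are 2 of them.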

How the results depend on the processing

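The number of members called under TMAO was 0 in all 21 alternatives. The window was chosen on the comparisons with WYKW, so the counts of members in these are again no test, and nothing is read from them. For SHRW against WYKW the number was 2 in all alternatives, where from 337 of 13112 to 1649 of 13017 genes were called. For SHRWT against WYKW it was from 2 to 4, where from 341 to 995 of 12833 genes were called. There it was 4 with DESeq2 and in the fit of all 18 libraries, and from 2 to 4 across the fits that left out 1 rat. With the replicate block it was 2 of 6, since ENSRNOG00000006589 no longer passed (log2 fold change -2.50), nor did it with limma voom (-3.41). Under TMAO the block gave it -0.64. The replicate numbers were not taken to pair the rats, since the labels give no shared litter, cage or day for a number. The correlation of same-numbered deviations was from -0.386 to 0.00482 in the TMAO comparison. It was from -0.303 to 0.553 for SHRW against WYKW (5 of 6 over 0.1) and from -0.231 to 0.285 for SHRWT against WYKW. Of 6 rats 0, 2 and 2 correlated best with their own number. For SHRW against WYKW the block called 591 genes against 445, and the standard error of ENSRNOG00000052415 was 0.20 against 0.32. Across the fits the log2 fold change of ENSRNOG00000001242 was from 3.90 to 4.14 and from 3.98 to 4.34 against WYKW, and that of ENSRNOG00000049771 from 1.62 to 1.99 and from 1.96 to 2.23. Under TMAO the sign changed in 2 cases across the fits that left out 1 rat: ENSRNOG00000006589 ranged from -3.25 to 0.07, the highest without SHRW replicate 3, and ENSRNOG00000001242 from -0.02 to 0.32, the lowest without SHRWT replicate 2. Over all genes, edgeR called 0 under TMAO, with 3212 at an unadjusted p under 0.05, but 403 with DESeq2, 1087 with limma voom, 685 without SHRW replicate 1 and 442 without SHRWT replicate 1. For SHRW against WYKW the 445 genes became 867 with DESeq2, 1649 with limma voom, 1278 without WYKW replicate 2 and 725 without SHRW replicate 1, and for SHRWT against WYKW the 464 became 804 and 736. With no fold limit they were 798 and 995. The cause of these changes was not tested.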

Other observations

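ENSRNOG00000038300, which shares the exon pattern of its neighbours, had 3 counts in all. Reads with several alignments were not counted, so this does not show that the transcript is absent from vWAT. The counts came from WYKW replicate 6 (1 count) and SHRW replicate 3 (2 counts), both of which were among the 3 libraries with a high level of ENSRNOG00000006589. So few counts give no rate. Among 14043 other genes with at least 100 counts, none followed ENSRNOG00000006589 over the 18 libraries more closely than ENSRNOG00000055197 on chromosome 17 (47870611 to 47878555), with Pearson's r = 0.811 on log2(CPM + 0.5). This gene was chosen after its values were seen.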
